A study of Homo sapiens with 16 samples.

Results

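The comparison was between MOLT4 and DND41 cells under ACBI-1, and it used the 8 ACBI-1 libraries of the 16 libraries in the series, chosen by the line and treatment in their titles. MOLT4 with 100 nM ACBI-1 for 3 h or 24 h gave 4 libraries, 2 at each time, and DND41 with the same dose and times gave 4 more. MOLT4 and DND41 with DMSO for 3 h or 24 h gave the other 8 libraries, which served for comparison. Both lines derive from human T-cell acute lymphoblastic leukaemia and were grown in RPMI-1640 with serum. Open chromatin was read out by ATAC-seq, an assay that uses the transposase Tn5 to cut and tag accessible DNA. Separate cultures are not stated in the labels for libraries of the same group, and p-values therefore cover the spread between these libraries only, which may be technical.

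ACBI-1 is a bifunctional degrader that brings SMARCA2 and SMARCA4, the ATPases of SWI/SNF, and the accessory subunit PBRM1 to an E3 ubiquitin ligase. SWI/SNF complexes use these ATPases to slide and evict nucleosomes, and are known for keeping enhancers open, including those that define a cell type. Leukaemia lines from different patients share many open promoters and differ mostly at distal elements. The question was how far the lines still differ in open chromatin when the ATPases are targeted for degradation. Degradation itself was not measured in these files, and no gene was assigned to a region, so regions are given by position on hg19 and the T-cell label was not checked against marker genes.

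Groups follow the titles. In 4 of the 8 ACBI-1 samples (MOLT4 at 24 h and DND41 at 3 h) the cell line field names the other line, whereas the line code in the deposited peak names matched the title in all 8. Each library's nearest library by overlap also came from the line of its title. However, the DND41 libraries at 3 h were nearest to each other, and replicate 1 of MOLT4 at 24 h was nearest to replicate 2. Such pairs would stay nearest under either label, so for them the nearest library alone cannot decide the line. By the overlap index defined below, replicate 1 of MOLT4 at 24 h had 0.460 and 0.470 with MOLT4 at 3 h. It had 0.364 with each DND41 library at 24 h. Both DND41 libraries at 24 h were nearest to replicate 2 of DND41 at 3 h, at 0.459. The DND41 libraries at 3 h had 0.452 to 0.459 with DND41 at 24 h and 0.445 to 0.460 with MOLT4 at 3 h. Replicate 2 of MOLT4 at 24 h was nearest to a MOLT4 library at 3 h. Without those 4 libraries only MOLT4 at 3 h and DND41 at 24 h would remain, and line and time could not be told apart. The tag in the peak names differed between 3 h and 24 h, so time, tag and preparation cannot be told apart. Read depth is unknown, and a missing peak can be a site below the detection limit of that list. DNA copy number is also unknown, and whether the DNA of a region is present in both lines was not tested.

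The lines had peak lists of similar size with ACBI-1. MOLT4 had 29478 and 30800 peaks at 3 h and 33870 and 28751 at 24 h, against 26145 and 31380 at 3 h and 33145 and 32113 at 24 h in DND41. The means were 30725 ± 2262 in MOLT4 and 30696 ± 3119 in DND41 (SD, n = 4 each; exact permutation p = 0.944). The peaks covered 14.1 ± 1.35 Mb in MOLT4 and 13.6 ± 2.17 Mb in DND41 (SD, n = 4 each; exact permutation p = 0.778). Median peak width was 347 and 377 bp at 3 h and 357 and 399 bp at 24 h in MOLT4, against 319 and 370.5 bp at 3 h and 347 and 361 bp at 24 h in DND41 (exact permutation p = 0.278). None of these differences was larger than the spread between libraries. All of these tests were two-sided and exchanged line labels within each time, which gives 36 exchanges and a smallest possible p of 0.0556, so no such comparison can pass 0.05.

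Merging peaks of the 8 libraries wherever 1 base or more overlapped gave 83684 regions. A shared core of 12420 regions, 14.8% of all regions, had a peak in all 8 libraries. In MOLT4, 1864 regions (2.23% of all) carried a peak in every library while no DND41 library did. The reverse held for 839 regions (1.0% of all) in DND41. MOLT4 thus had 2.22 times as many restricted regions as DND41, from lists of similar mean size. The size of this excess was not stable. With 1 library left out the counts were 1932 to 2376 in MOLT4 and 921 to 1227 in DND41. Without replicate 1 of DND41 at 3 h, the shortest list, they were 1932 and 1227. At 24 h alone they were 3810 and 3202. Regions found in 1 library only numbered 44460 (53.1%), and 39224 were found in 2 or more. Because of the smallest possible p, 0 single regions had an exact permutation p under 0.05, and these counts are descriptions.

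**Figure D1:**
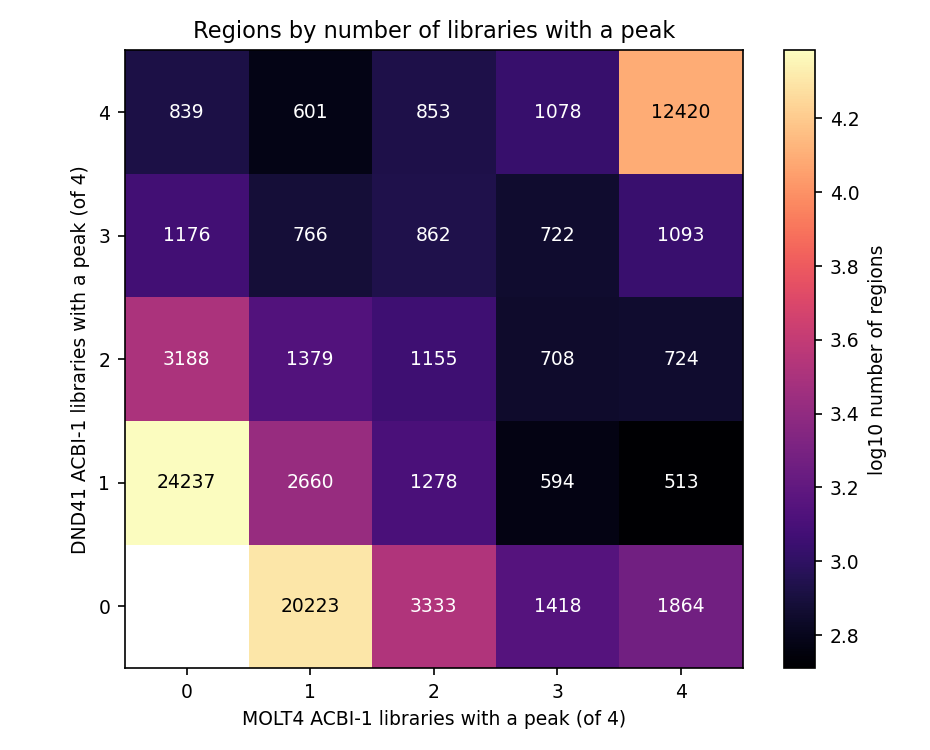
Number of regions (colour on a log10 scale, count printed in each cell) by how many of the 4 MOLT4 ACBI-1 libraries (horizontal) and of the 4 DND41 ACBI-1 libraries (vertical) had a peak. The counts pile up in the corners, with 12420 regions in all 8 libraries, 1864 in 4 MOLT4 and 0 DND41 libraries and 839 in 0 MOLT4 and 4 DND41 libraries, and along the edges for regions found in 1 library.

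Most of what was reproducible in one line was also reproducible in the other. MOLT4 had 16614 regions with a peak in all 4 libraries, of which 74.8% were in the core and 11.2% had no DND41 peak. DND41 had 15791 such regions, of which 78.7% were in the core and 5.31% had no MOLT4 peak. One step below the threshold, 1418 regions had 3 MOLT4 libraries and no DND41 library, and 1176 had 3 DND41 libraries and no MOLT4 library. On the other side of it, 513 regions had all 4 MOLT4 libraries and 1 DND41 library, and 601 had all 4 DND41 libraries and 1 MOLT4 library. When 3 of 4 libraries were enough, 3282 regions were restricted to MOLT4 and 2015 to DND41.

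Restricted regions were narrower than the core. Their median width, over the libraries with the peak, was 456 bp for MOLT4-restricted and 379 bp for DND41-restricted regions. Core regions had a median width of 665 bp in MOLT4 and 640 bp in DND41. Of the MOLT4-restricted regions 351 (18.8%) were broader than the core median of their line, and of the DND41-restricted regions 103 (12.3%) were. Their median distance to the nearest core region was 79.6 kb for MOLT4-restricted and 92.1 kb for DND41-restricted regions, against 72.2 kb for the other regions found in 2 or more libraries and 170 kb for those found in 1.

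The 5 MOLT4-restricted regions with the highest mean percentile of peak width over the 4 libraries had peaks above 1 kb in each of them. The highest, the region on chromosome 1 from 85666299 to 85667768, was 1188 and 1431 bp wide at 3 h and 1452 and 1283 bp at 24 h in MOLT4, with no peak in DND41. With DMSO it was 1707 and 1526 bp at 3 h and 1553 and 1592 bp at 24 h in MOLT4, again with no DND41 peak. The peak was thus present in all 8 MOLT4 lists and in none of the 8 DND41 lists. The other 4 lay at chr4:77870110-77871963, chr1:228644919-228646406, chr4:187646918-187648207 and chr6:146864385-146865887. Their ACBI-1 peaks averaged 1349 ± 116, 1303 ± 157, 1229 ± 41.3 and 1291 ± 179 bp in MOLT4 (SD, n = 4 each). All 5 regions had a peak in the 4 MOLT4 DMSO libraries and in no DND41 DMSO library. Whether DND41 holds the DNA of these regions was not tested.

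The 5 DND41-restricted regions named by the same rule averaged 963 to 1155 bp in DND41. The region on chromosome 7 from 114648563 to 114649741 had no ACBI-1 peak in MOLT4 and was 996 and 1028 bp wide at 3 h and 1101 and 1154 bp at 24 h in DND41. With DMSO, 1 MOLT4 library had a peak of 382 bp there and the DND41 libraries averaged 1126 ± 73.9 bp (SD, n = 4). The others were at chr5:66461426-66462767, chr4:135122069-135123303, chr4:178147563-178148805 and chr9:21974592-21975628. They averaged 1155 ± 185, 1078 ± 278, 1021 ± 204 and 963 ± 52.0 bp in the DND41 ACBI-1 libraries (SD, n = 4 each). The region on chromosome 4 from 135122069 had a 191 bp peak in 1 MOLT4 DMSO library, and the other 3 had none in any MOLT4 library. Whether MOLT4 holds the DNA of those 3 regions was not tested.

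The DMSO libraries, which had no part in choosing these regions, showed most of the same line difference. At the 1864 MOLT4-restricted regions, the MOLT4 DMSO libraries had a peak at 97.4% and 97.9% at 3 h and 97.4% and 97.2% at 24 h, against 21.4% and 14.8% at 3 h and 14.9% and 13.5% at 24 h in DND41. The means were 97.5 ± 0.300% in MOLT4 and 16.1 ± 3.58% in DND41 (SD, n = 4 each), a difference of 81.4 percentage points (exact permutation p = 0.0556, the smallest possible). At the 839 DND41-restricted regions, the MOLT4 DMSO libraries had a peak at 31.1% and 26.9% at 3 h and 22.2% and 22.6% at 24 h, against 96.9% and 92.3% at 3 h and 91.3% and 91.2% at 24 h in DND41. The means were 25.7 ± 4.19% in MOLT4 and 92.9 ± 2.70% in DND41 (SD, n = 4 each), a difference of -67.2 points (exact permutation p = 0.0556). The lines did not overlap at either class. At the core, DMSO libraries had a peak at 99.3 ± 0.301% of regions in MOLT4 and 99.5 ± 0.268% in DND41 (SD, n = 4 each; exact permutation p = 0.167).

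Region by region, 1239 (66.5%) of the MOLT4-restricted regions met the same rule with DMSO. This compares with 4.63% of all 98408 DMSO regions and 16.8% of those with a peak in all 4 MOLT4 DMSO libraries. For DND41 the rule was met by 384 (45.8%), against 2.45% of all DMSO regions and 9.70% of those in all 4 DND41 DMSO libraries. Some restricted regions were open in both lines with DMSO. Of the MOLT4-restricted regions 554 (29.7%) had a peak in at least 1 DND41 DMSO library and 99 (5.31%) in all 8 DMSO libraries. Of the DND41-restricted regions 372 (44.3%) had a peak in at least 1 MOLT4 DMSO library and 88 (10.5%) in all 8. Line restriction that appeared with no DMSO peak in the same line was rare, with 7 MOLT4-restricted and 6 DND41-restricted regions.

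At 4 regions that were shared with DMSO and restricted with ACBI-1, the DMSO peak was narrower in the line without an ACBI-1 peak. They were picked after their values were seen, as the broadest of their kind in each line by mean ACBI-1 peak width. This choice favours a broad DMSO peak in the line with the ACBI-1 peak, so the 4 are examples only. Whether the other regions of this kind show the same was not tested. On chromosome 4 from 186130426 to 186131787, the ACBI-1 peak was 986 ± 187 bp in MOLT4 (SD, n = 4) and absent in DND41. The DMSO peak was 1232 ± 93.9 bp in MOLT4 and 303 ± 48.1 bp in DND41 (SD, n = 4 each). On chromosome 22 from 20286476 to 20287535 the DMSO peak was 921 ± 130 bp in MOLT4 and 495 ± 31.2 bp in DND41 (SD, n = 4 each). On chromosome 2 from 161037206 to 161038288 the ACBI-1 peak was absent in MOLT4 and 911 ± 113 bp in DND41 (SD, n = 4), and the DMSO peak was 387 ± 141 bp in MOLT4 and 655 ± 112 bp in DND41 (SD, n = 4 each). On chromosome 7 from 120884220 to 120885059 the DMSO peak was 194 ± 24.7 bp in MOLT4 and 701 ± 60.6 bp in DND41 (SD, n = 4 each).

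The reverse question was what became of line differences present with DMSO. With DMSO, 4553 regions had a peak in every MOLT4 library and none in DND41, 2408 had a peak in every DND41 library and none in MOLT4, and 18497 (18.8% of 98408) were in all 8. At the 4553 MOLT4 regions, the MOLT4 ACBI-1 libraries had a peak at 59.5% and 64.8% at 3 h and 44.9% and 41.5% at 24 h, against 0.571% and 0.922% at 3 h and 1.27% and 1.30% at 24 h in DND41. At the 2408 DND41 regions, the MOLT4 ACBI-1 libraries had a peak at 2.78% and 2.82% at 3 h and 4.61% and 3.28% at 24 h, against 45.2% and 63.7% at 3 h and 37.1% and 35.4% at 24 h in DND41. The owner line thus kept part of its peaks and the other line gained few. The ACBI-1 lists were shorter, with means of 30725 peaks in MOLT4 and 30696 in DND41, against 41486 and 43615 with DMSO. The differences were 51.7 percentage points at the MOLT4 regions and -42.0 at the DND41 regions (exact permutation p = 0.0556 for both, the smallest possible). With lists cut to equal length, keeping the broadest peaks of each, they were larger, at 67.7 and -55.3 points (exact permutation p = 0.0556 for both). This cut drops narrow peaks, and the regions restricted with DMSO were chosen anew from the peaks left. At the regions found in all 8 DMSO libraries, ACBI-1 libraries had a peak at 85.2 ± 5.72% in MOLT4 and 85.4 ± 5.12% in DND41 (SD, n = 4 each; exact permutation p = 0.889). These regions were broader with DMSO, with a median of 609 bp, against 399 bp at the MOLT4 and 343.5 bp at the DND41 regions. The shares were not compared at matched width.

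**Figure D2:**
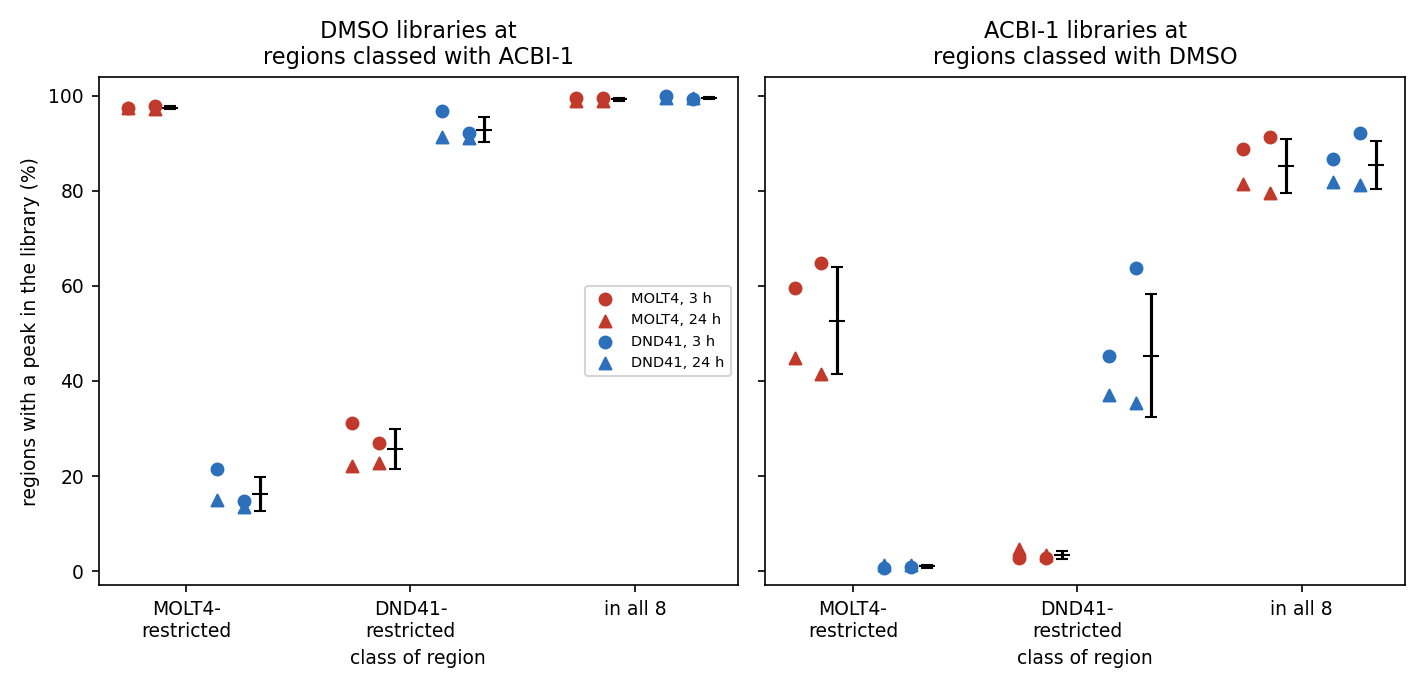
Percent of regions with a peak in each library (circles 3 h, triangles 24 h), with mean and SD over the 4 libraries of a line in black. At left, DMSO libraries at regions classed with ACBI-1: 97.5% in MOLT4 and 16.1% in DND41 at MOLT4-restricted regions, and 25.7% in MOLT4 and 92.9% in DND41 at DND41-restricted regions. At right, ACBI-1 libraries at regions classed with DMSO, where the owner line lies at 52.7% in MOLT4 and 45.4% in DND41 and the other line below 5%.

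Of the 4553 MOLT4 regions, 1244 (27.3%) kept a peak in all 4 MOLT4 and no DND41 ACBI-1 libraries, 2180 (47.9%) kept it in 1 to 3 MOLT4 libraries only, and 971 (21.3%) had no ACBI-1 peak in either line. Of the 2408 DND41 regions the counts were 388 (16.1%), 1216 (50.5%) and 580 (24.1%). A peak appeared in the other line with ACBI-1 at 158 (3.47%) of the MOLT4 regions and 224 (9.30%) of the DND41 regions. Just 1 MOLT4 region and 7 DND41 regions reached all 4 libraries of the other line. The width of the DMSO peak went with the outcome. Among MOLT4 regions in the narrow, middle and broad tertiles by DMSO width, 4.40%, 18.3% and 59.3% kept full restriction, and among DND41 regions 4.97%, 9.23% and 34.2%. The median DMSO width was 592 bp in MOLT4 regions that kept it and 287 bp in those with no ACBI-1 peak, and 517 bp against 279 bp in DND41 regions.

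The overlap of whole lists was measured by the Jaccard index, the number of regions with a peak in both libraries divided by the number with a peak in either. Within a line the index averaged 0.488 over 12 pairs (0.447 to 0.610), and between the lines 0.399 over 16 pairs (0.364 to 0.460). The difference of 0.0887 had the smallest possible exact permutation p of 0.0556. Within MOLT4 the mean was 0.503 and within DND41 0.473, over 6 pairs each. Every library shared most with a library of its own line. The gap was not clean at 3 h in DND41, where replicate 1 had 0.452 with its least similar DND41 library and 0.456 with its most similar MOLT4 library, and replicate 2 had 0.459 and 0.460.

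**Figure D3:**
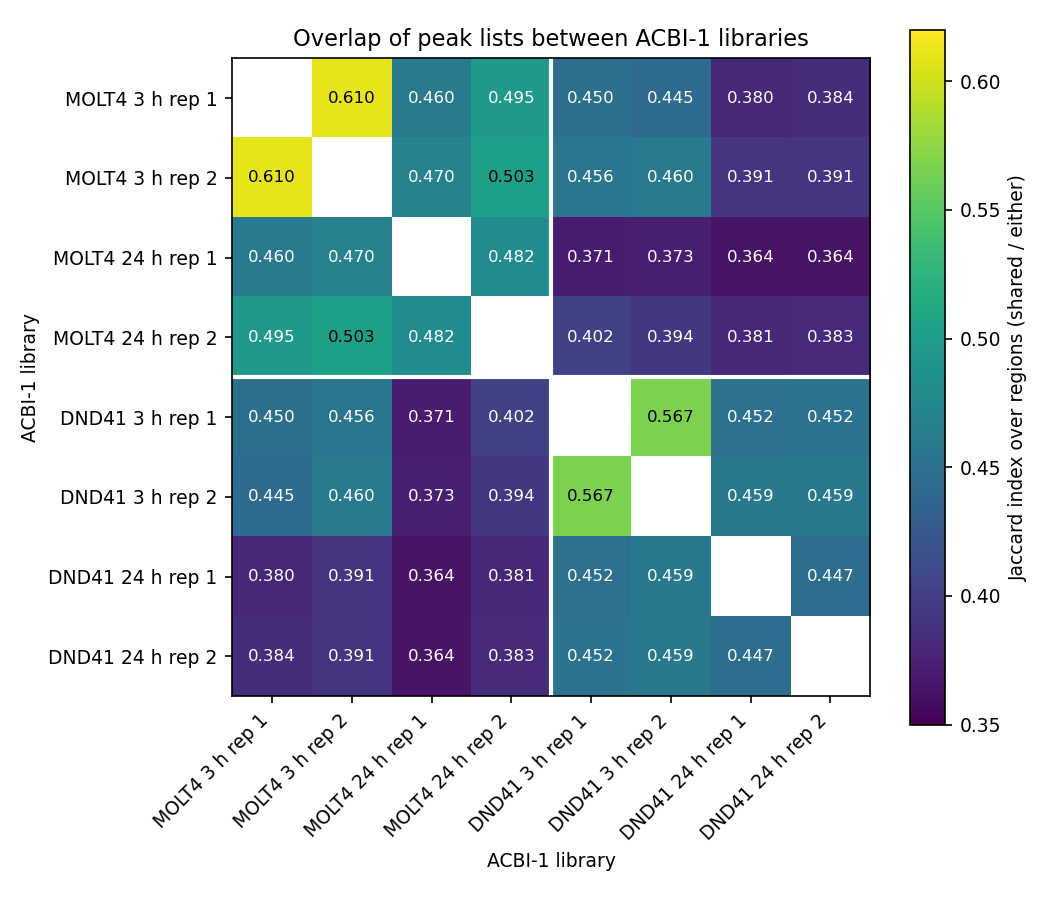
Jaccard index over regions for each pair of ACBI-1 libraries, with MOLT4 and DND41 separated by white lines. Pairs within MOLT4 (upper left) and within DND41 (lower right) average 0.503 and 0.473, and pairs between the lines average 0.399, with the highest of these between the 3 h libraries.

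The between-line index was lower at 24 h than at 3 h in every pair. It was 0.364, 0.364, 0.381 and 0.383 for the 4 pairs at 24 h and 0.450, 0.445, 0.456 and 0.460 for the 4 pairs at 3 h. The difference between times was -0.0795 (exact permutation p = 0.0556, the smallest possible). Overlap within a line was also lower at 24 h, at 0.482 in MOLT4 from 1 pair and 0.447 in DND41 from 1 pair, against 0.610 in MOLT4 and 0.567 in DND41 at 3 h. The share of a library's regions found in no other ACBI-1 library was 17.6% to 26.0% at 24 h and 11.0% to 15.5% at 3 h. The difference between times was smaller with lists cut to equal length by dropping narrow peaks, at -0.0348 (exact permutation p = 0.111). It was also smaller over bases, at -0.0272 (exact permutation p = 0.111). In regions found in 2 or more libraries it was 0.00149 (exact permutation p = 0.889), a restriction chosen after the data were seen.

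Restriction at 3 h carried over to 24 h in part. At 3 h alone, 4877 regions (9.62% of 50672) had a peak in both MOLT4 libraries and none in DND41, and 3081 (6.08%) the opposite pattern. At 24 h alone, 3810 regions (5.86% of 65066) had a peak in both MOLT4 libraries and none in DND41, and 3202 (4.92%) the opposite pattern. Of the MOLT4 regions at 3 h, 38.2% were restricted to MOLT4 in both libraries at 24 h, 30.2% had no peak in either line at 24 h and 14.5% had a DND41 peak. Of the DND41 regions at 3 h, these shares were 27.2%, 31.9% and 18.7%, the last with a MOLT4 peak. A full swap to both libraries of the other line was seen at 19 MOLT4 and 14 DND41 regions.

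Whether the lines were closer with ACBI-1 than with DMSO depended on the measure. Over regions merged from all 16 libraries, the between-line index at the same time averaged 0.417 with ACBI-1 and 0.434 with DMSO, a difference of -0.0178 (exact permutation p = 0.0586, exchanging treatment within line and time, smallest possible p 0.00154). With lists cut to equal length by dropping narrow peaks it was -0.0455 (exact permutation p = 0.00463). With regions built from peak midpoints it was -0.0196 (exact permutation p = 0.0340). It also passed 0.05 without replicate 1 of MOLT4 DMSO at 3 h, replicate 2 of DND41 DMSO at 3 h or replicate 1 of DND41 DMSO at 24 h (exact permutation p of 0.0478, 0.0386 and 0.0123), and did not without any other single library (exact permutation p up to 0.309). Measured over bases it was smaller, at -0.00905 (exact permutation p = 0.256), and in regions found in 2 or more libraries it was -0.00397 (exact permutation p = 0.660). ACBI-1 libraries of 1 group also overlapped less with each other, at 0.532 with ACBI-1 and 0.613 with DMSO. Relative to that, the ratio of between-line to within-group overlap was higher with ACBI-1, at 0.784, than with DMSO, at 0.708. The log2 difference was 0.15 (exact permutation p = 0.0201), with 0.12 at 3 h (exact permutation p = 0.222) and 0.18 at 24 h (exact permutation p = 0.0556, the smallest possible within 1 time). It rests on few pairs: it was 0.073 to 0.25 with 1 library left out, and the call ended without any library other than the DND41 ACBI-1 libraries at 3 h (exact permutation p up to 0.577). Leaving out a library removes the only pair of its group. The within-group mean then covers fewer groups in that treatment, so the measure itself changes.

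The sets of regions found in all 4 libraries of a line gave another measure, added after the data were seen. Their index between MOLT4 and DND41 was 0.621 with ACBI-1 and 0.554 with DMSO, a difference of 0.0675 (exact permutation p = 0.0941). Restricted regions made up 11.2% of the MOLT4 set with ACBI-1 and 16.8% with DMSO, and 5.31% of the DND41 set with ACBI-1 and 9.70% with DMSO. The ACBI-1 sets were smaller, with 16614 regions in MOLT4 and 15791 in DND41, against 27096 in MOLT4 and 24837 in DND41 with DMSO. With lists cut to equal length the difference in the index was 0.0375 (exact permutation p = 0.187), and with a common minimum peak width 0.0631 (exact permutation p = 0.127).

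Within the shared core the lines differed in peak width. Summed peak width per region was compared with limma on the log2 scale, after centring each library on its median, at a Benjamini-Hochberg adjusted p under 0.05. With ACBI-1, 128 of 12420 core regions (1.03%) were broader in MOLT4 and 138 (1.11%) broader in DND41. With DMSO, a separate fit over 18497 regions called 436 (2.36%) broader in MOLT4 and 456 (2.47%) broader in DND41. The median size of the differences called with ACBI-1 was 0.85 on the log2 scale, against 0.16 over all core regions. The ACBI-1 counts were 36 to 88 in MOLT4 and 36 to 83 in DND41 with any 1 of the 8 libraries left out, and the DMSO counts were 166 to 287 in MOLT4 and 181 to 364 in DND41. At equal list lengths the DMSO counts were 159 in MOLT4 and 168 in DND41. With ACBI-1 they were 81 in MOLT4 and 38 in DND41 without centring, and 53 in MOLT4 and 66 in DND41 with the widest peak in place of the sum.

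Among regions broader in MOLT4, the one on chromosome 1 from 233462888 to 233464377 differed most. It was 1129 and 1135 bp wide at 3 h and 858 and 1362 bp at 24 h in MOLT4, against 402 and 182 bp at 3 h and 501 and 247 bp at 24 h in DND41. The log2 difference was 1.79 (SE 0.33; limma adjusted p = 0.0353), and with DMSO it was 0.83 (SE 0.13; limma adjusted p = 0.0123). The region at chr17:71306937-71308455 had 1033 ± 314 bp in MOLT4 and 304 ± 124 bp in DND41, and the one at chr13:113622827-113624008 had 750 ± 106 bp in MOLT4 and 222 ± 33.5 bp in DND41 (SD, n = 4 each). The region at chr12:46662447-46663917 had 1249 ± 148 bp in MOLT4 and 424 ± 225 bp in DND41 (SD, n = 4 each), and the one at chr6:4775778-4776673 differed by 1.62 (SE 0.26) on the log2 scale. In all 5 the groups did not overlap, as the rule for naming them required.

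Among regions broader in DND41, the one on chromosome 5 from 106906665 to 106908185 differed most. It was 342 and 311 bp wide at 3 h and 413 and 388 bp at 24 h in MOLT4, against 1130 and 1496 bp at 3 h and 998 and 1445 bp at 24 h in DND41. The log2 difference was -1.85 (SE 0.15; limma adjusted p = 0.00392), and with DMSO it was -1.17 (SE 0.15; limma adjusted p = 0.00437). On chromosome 2 from 194211951 to 194213148, width was 306 ± 62.1 bp in MOLT4 and 1020 ± 90.5 bp in DND41, and from 64082710 to 64083848 it was 224 ± 53.7 bp in MOLT4 and 783 ± 284 bp in DND41 (SD, n = 4 each). On chromosome 4 from 122716431 to 122717514 it was 225 ± 61.3 bp in MOLT4 and 767 ± 250 bp in DND41, and from 81104933 to 81106064 it was 276 ± 54.0 bp in MOLT4 and 879 ± 202 bp in DND41 (SD, n = 4 each). The region from 81104933 was not part of the DMSO core.

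The width differences seen with ACBI-1 were mostly in the same direction with DMSO. Over the 12037 regions found in all 16 libraries, 127 were broader in MOLT4 with ACBI-1 (1.06%) and 94 with DMSO (0.781%), with 34 in common, 26.8% of the ACBI-1 and 36.2% of the DMSO calls. In the other direction, 134 were broader in DND41 with ACBI-1 (1.11%) and 97 with DMSO (0.806%), with 22 in common, 16.4% of the ACBI-1 and 22.7% of the DMSO calls. Of the regions called with ACBI-1, 122 of 127 and 129 of 134 had the same sign with DMSO, against 69.97% of all 12037 regions. No region was called in opposite directions. Pearson's r across the 12037 regions was 0.599, a description across regions that are not independent, from libraries not shared between the treatments. The line by treatment interaction gave 0 calls in limma, with 346 regions higher and 363 lower at an unadjusted p under 0.05 and a smallest adjusted p of 0.387. Without replicate 2 of MOLT4 ACBI-1 at 3 h it gave 1 call, and without replicate 1 of MOLT4 ACBI-1 at 24 h 2, all lower. The line by time interaction with ACBI-1 likewise gave 0 calls in limma, with 294 higher and 387 lower at an unadjusted p under 0.05. No other tool was run for these, and an absence of calls does not show equal widths.

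**Figure D4:**
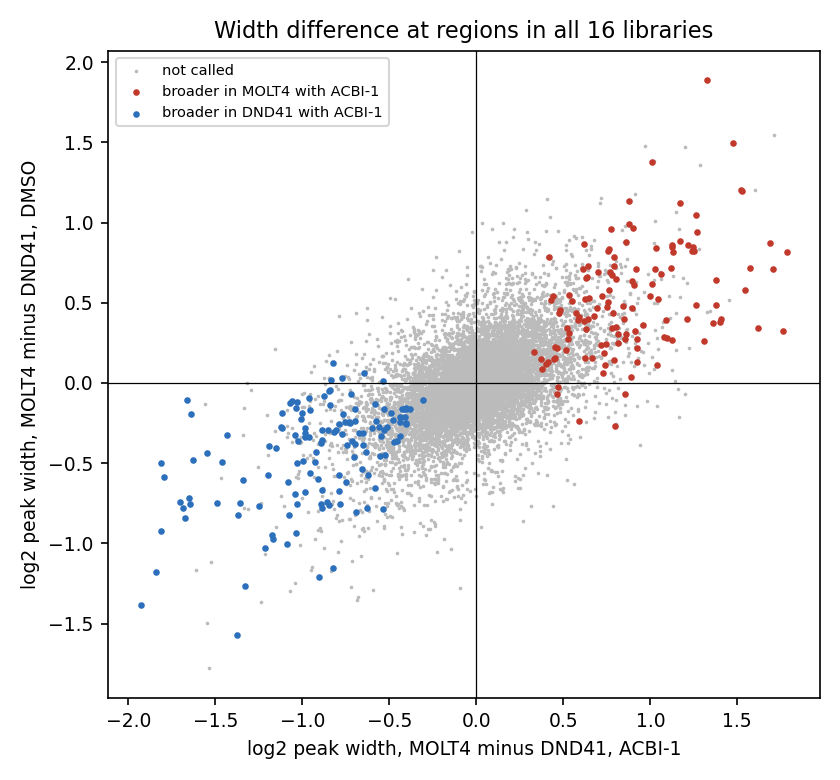
Log2 difference in peak width, MOLT4 minus DND41, with ACBI-1 (horizontal) and with DMSO (vertical) for the 12037 regions found in all 16 libraries. Regions called broader in MOLT4 (127) or in DND41 (134) with ACBI-1 are coloured, and 122 and 129 of them keep their sign with DMSO.

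Loci of 3 or more restricted regions were few in each line. Neighbours were joined among the 1864 MOLT4-restricted and the 839 DND41-restricted regions. This gave 4 loci of at least 3 regions in each line, with gaps inside a locus of at most 12.2 kb. Without replicate 1 of MOLT4 ACBI-1 at 3 h there were 8 in MOLT4. How many loci the same number of other regions would give was not tested. The MOLT4 loci were at chr5:176023738-176046601, chr8:144251614-144273221, chr9:124495164-124511207 and chr4:113436014-113445464, each with 3 restricted regions. With DMSO the locus on chromosome 9 had no DND41 peak in any library, and the one on chromosome 8 had 2, 2, 2 and 3 in the DND41 libraries. The largest DND41 locus, on chromosome 7 from 38375087 to 38398913, had 4 restricted regions, with no MOLT4 peak and 6 and 6 peaks at 3 h and 5 and 5 at 24 h in DND41. With DMSO it had no MOLT4 peak and 7 in each DND41 library. Whether the DNA of this locus is present in MOLT4 was not tested. The other DND41 loci were at chr8:74376235-74387817, chr14:106804868-106815923 and chr18:60873787-60884295, and those on chromosomes 14 and 18 had no MOLT4 peak with DMSO.

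Longer stretches without a peak of the other line were searched for after the data were seen, as at least 5 consecutive regions, each found in 2 or more ACBI-1 libraries and none with a peak of the other line. There were 50 such runs in MOLT4 and 48 in DND41. Of the 39224 regions found in 2 or more libraries, 3333, 1418 and 1864 had a peak in 2, 3 and 4 MOLT4 libraries and none in DND41. The reverse held for 3188, 1176 and 839 regions. How many runs the same regions would give in random order was not tested. The longest in MOLT4 had 10 regions, on chromosome 17 from 67529922 to 69094567. Counting every peak in that stretch, MOLT4 had 12 and 12 at 3 h and 9 and 10 at 24 h, against 0 and 0 at 3 h and 0 and 1 at 24 h in DND41. A second, on chromosome 17 from 76480629 to 76745096, had 9 and 11 peaks at 3 h and 8 and 11 at 24 h in MOLT4 and none in DND41. The longest in DND41 had 16 regions, on chromosome 18 from 26362649 to 27772794, with 2 and 0 peaks at 3 h and 0 and 0 at 24 h in MOLT4, against 13 and 17 at 3 h and 24 and 29 at 24 h in DND41. A run of 13 regions on chromosome 14 from 22314692 to 22942225 had no peak in any of the 8 MOLT4 libraries of either treatment, against 6 and 13 at 3 h and 13 and 10 at 24 h in DND41 with ACBI-1. With DMSO that stretch held 19 and 13 peaks at 3 h and 15 and 17 at 24 h in DND41. Whether MOLT4 holds the DNA of that stretch was not tested. Runs at chr6:93747229-95652551 and chr5:35494817-35823013 had 11 regions each in DND41.

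On many chromosomes the shares of peaks in MOLT4 and DND41 did not overlap. With ACBI-1, all 4 MOLT4 libraries lay above all 4 DND41 libraries in their share of peaks on 8 of 23 chromosomes (34.8%; 8, 15, 16, 17, 19, 20, 21 and 22) and below them on 7 (30.4%; 2, 3, 6, 11, 12, 13 and 18). Each had the smallest possible exact permutation p of 0.0556, adjusted 0.0799 over 23 chromosomes. Chromosome 17 held 4.15% and 4.12% of the peaks at 3 h and 4.61% and 4.93% at 24 h in MOLT4, against 3.16% and 2.90% at 3 h and 2.84% and 2.94% at 24 h in DND41. Chromosome 18 held 1.40% and 1.38% at 3 h and 1.04% and 1.07% at 24 h in MOLT4, against 2.33% and 2.36% at 3 h and 2.25% and 2.30% at 24 h in DND41. Chromosome 15 held 2.65 ± 0.143% in MOLT4 and 1.77 ± 0.127% in DND41, and chromosome 20 held 2.55 ± 0.417% in MOLT4 and 1.68 ± 0.0539% in DND41 (SD, n = 4 each).

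Most of the same chromosomes stood apart with DMSO, where 6 were higher (26.1%) and 7 lower (30.4%) in MOLT4, 5 and 6 of them as with ACBI-1. On chromosome 17 the DMSO share was 4.06 ± 0.407% in MOLT4 and 2.97 ± 0.111% in DND41, and on chromosome 18 it was 1.52 ± 0.114% in MOLT4 and 2.32 ± 0.0300% in DND41 (SD, n = 4 each). Restricted regions and core widths went the same way on both. Chromosome 17 held 86 MOLT4-restricted and 5 DND41-restricted regions, and its 613 core regions had a median log2 width difference of 0.18. Chromosome 18 held 22 MOLT4-restricted and 41 DND41-restricted regions, and its 167 core regions had a median of -0.21. Widths and restricted regions did not follow the share on every chromosome. Chromosome 8, with a higher share in MOLT4, had a core median of -0.059. Chromosome 11, with a lower share in MOLT4, held 87 MOLT4-restricted and 34 DND41-restricted regions. Over all chromosomes, 69.0% of the 2703 restricted regions were MOLT4-restricted and the median over all core regions was -0.02. In regions found in 2 or more ACBI-1 libraries, 5 chromosomes were higher and 6 lower in MOLT4. DNA copy number of the lines was not measured, and its part in these shares was not tested.

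**Figure D5:**
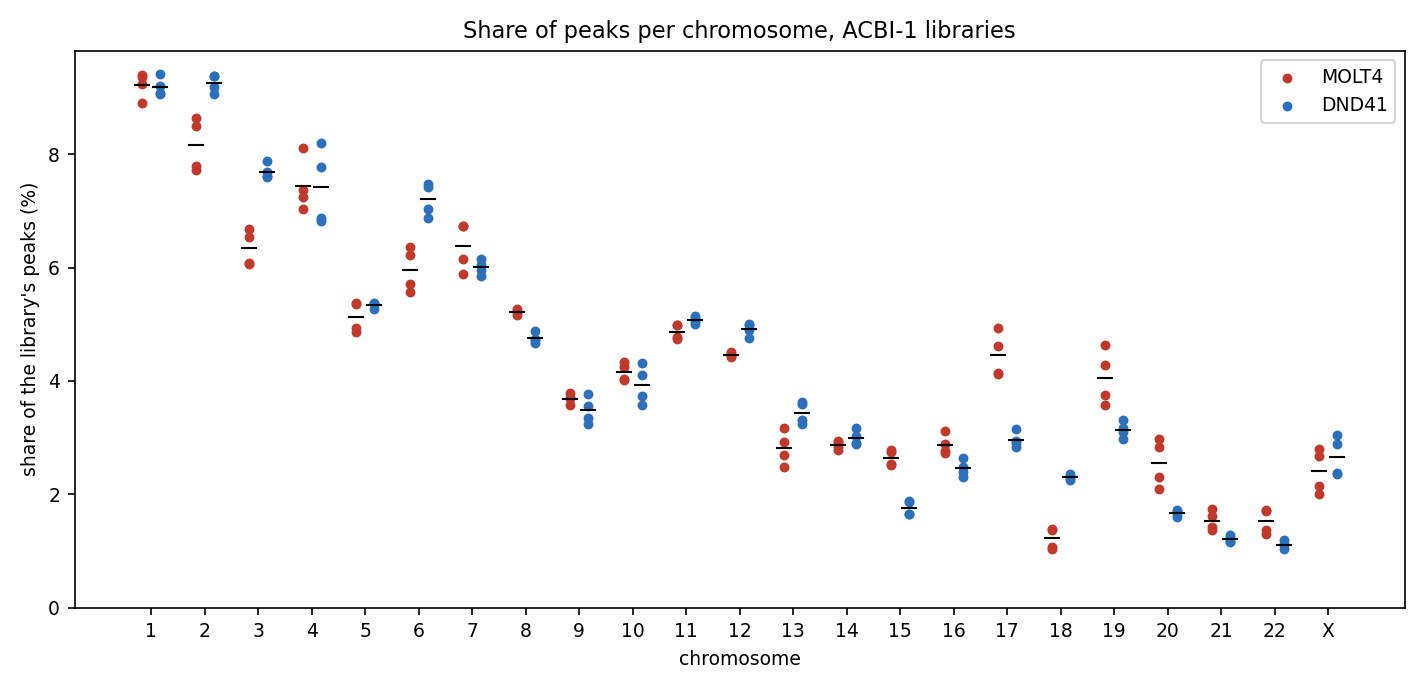
Share of each library's peaks on each chromosome with ACBI-1, with points for the 4 MOLT4 and the 4 DND41 libraries and black lines for their means. MOLT4 lies above DND41 without overlap on 8 chromosomes, such as 17 (4.45% in MOLT4 and 2.96% in DND41), and below it on 7, such as 18 (1.22% in MOLT4 and 2.31% in DND41).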

How the data were processed

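Peak lists of 16 ATAC-seq libraries were used, 1 per library, with 4 columns as deposited by the authors: chromosome, start, end and name. The values are positions, without peak scores or read totals. Per the submitters' processing notes, the build was hg19 and the tools were Bowtie2, SAMtools, Picard and MACS2 2.1.1.2016030. Their roles and settings are not given in the sources used here. The gene, promoter and miRNA tables at hand are on another build, so no gene or sequence was assigned and the planned gene and marker lists were not run.

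Peaks on chromosomes 1 to 22 and X were merged where they shared at least 1 base, over the 8 ACBI-1 libraries, the 8 DMSO libraries or all 16. Coordinates are hg19, counted from 1. Libraries were grouped by title. Two-sided exact permutation tests exchanged line within time, or treatment within line and time. Widths were fitted with limma 3.58.1 in R 4.3.3 (time as covariate, trend and robust variance) and tested on simulated data, and the rest was computed in Python 3.11.15. Calls were at an adjusted p under 0.05.

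The rule for named items took, per line, the 5 restricted regions with the highest mean percentile of peak width, the 5 loci with most restricted regions, and the 5 called core regions with the largest log2 difference and groups that did not overlap. Members, lists and tests were chosen with earlier results of these data known. Alternatives were each library left out, equal list lengths, all sequences, a common minimum peak width, regions from midpoints, overlap in bases, a replicate block, unstratified exchange, other width settings and other locus rules. Lists were cut to equal length by keeping the broadest peaks of each, down to the size of the shortest list. Regions in 2 or more libraries, single times, the sets found in all 4 libraries and runs were added after the data were seen.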

Additional observations from a re-analysis of the deposited data

Results flagged for a closer look

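The ratio of between-line to within-group overlap differed between treatments by 0.15 on the log2 scale (exact permutation p = 0.0201), at 0.784 with ACBI-1 and 0.708 with DMSO. It is listed because the difference between the arms was itself tested and passed 0.05. Leaving out any 1 library other than the DND41 ACBI-1 libraries at 3 h ended the call, though this also removes the only within-group pair of that group. Of 74 groups of 4 libraries examined for a library far from the other 3, in list size, width, shares at restricted regions and chromosome shares, 0 had one, where chance gives about 1 in 20.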

How the results depend on the processing

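Tests that exchange line within time cannot pass 0.05, so their side of the threshold says nothing about stability. Of the counts of restricted regions, the looser and single-time rules gave more: 3282 in MOLT4 and 2015 in DND41 with 3 of 4 libraries, 4877 and 3081 at 3 h alone, and 3810 and 3202 at 24 h alone. Line labels exchanged over all 8 libraries, ignoring time, gave an exact permutation p of 0.0286 for the Jaccard difference within minus between lines (0.0887) and for the shares at restricted regions (81.4, -67.2, 51.7 and -42.0 points). The between-line Jaccard difference, ACBI-1 minus DMSO, passed 0.05 with equal list lengths (-0.0455) and midpoints (-0.0196), but not over bases (-0.00905), in regions found in 2 or more libraries (-0.00397) or with a common minimum peak width (-0.0194), and was -0.0230 to -0.0123 with a library left out. The difference between times, 24 h minus 3 h, was -0.0348 with equal list lengths, -0.0272 over bases and 0.00149 in regions found in 2 or more libraries, against -0.0795. The difference in the index of the sets found in all 4 libraries was 0.0375 with equal list lengths, against 0.0675. ACBI-1 shares at regions restricted with DMSO differed by 67.7 and -55.3 points with equal list lengths, against 51.7 and -42.0. The log2 ratio was 0.12 at 3 h alone and 0.18 at 24 h alone, neither past 0.05, and 0.073 to 0.25 with a library left out. Chromosomes higher in MOLT4 numbered 5 in regions found in 2 or more libraries. Loci of MOLT4 numbered 0 with a 5 kb gap, 0 with at least 5 regions and 4 to 8 with a library left out, and those of DND41 2 with midpoints, 1 with a 5 kb gap and 0 with at least 5 regions.

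Core regions broader in MOLT4 and in DND41 with ACBI-1 numbered 81 and 38 without centring and 53 and 66 with the widest peak. With a library left out they numbered 36 to 88 in MOLT4 and 36 to 83 in DND41. With DMSO they numbered 159 and 168 at equal list lengths, 288 and 172 without centring, and 166 to 287 in MOLT4 and 181 to 364 in DND41 with a library left out. The line by treatment interaction gave 0 to 2 lower calls with a library left out. The cause of these changes was not tested. Replicate numbers do not pair these libraries: same-numbered libraries of the lines had correlations of deviations of 0.0439 at 3 h and -0.00413 at 24 h with ACBI-1, and -0.0300 at 3 h and -0.00852 at 24 h with DMSO. With a replicate block, 16 core regions were broader in MOLT4 and 16 in DND41 with ACBI-1, and the log2 ratio of 0.15 had an exact permutation p of 0.00781. Depth is unknown, so weak sites missed by a list cannot be separated from closed ones. Copy number was not measured, so neither can be separated from DNA missing in a line.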
